A study of Mus musculus and Homo sapiens with 12 samples.

Results

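The genes described here are 10 that encode proteins used to recognise or sort blood stem and progenitor cells: CD34, PROCR, ANGPT1, TEK, PROM1, THY1, SLAMF1, CD48, CD44 and ITGA6. They were taken as a named list, out of 55487 genes counted in mouse and 78932 counted in human cells. The list was chosen with earlier results of these data known. All 10 were matched by symbol in the mouse and 9 in the human data. Human PROM1 was not matched and is not analysed here. Of the 10 products, ANGPT1 is a secreted ligand and the others sit in or on the cell membrane.

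Messenger RNA was counted in 12 libraries of 2 experiments on the RNA helicase DDX21, with 3 libraries in each of 4 groups. The mouse groups were LK cells (negative for the lineage markers Gr1, Cd11b, CD3, B220 and Ter119, positive for cKit) sorted from fetal liver at E13.5, the embryonic stage in days. The control embryos (WT) had the genotype Ddx21f/f, with loxP-flanked alleles, and the knockouts (cKO) had the genotype Vav-Cre; Ddx21f/f. The Vav promoter drives Cre in blood cells and also in some endothelial cells, the loxP alleles are common to both groups, and Cre without loxP alleles was not among the groups. The human groups were blood stem cell-like cells grown from the embryonic stem cell line H1 with a differentiation kit. A lentivirus with mCherry delivered a hairpin against DDX21 (shDDX21) or a control hairpin (shNC). Cells positive for CD34, CD45, CD43 and the hairpin marker were sorted 2 days later. All human libraries thus come from 1 cell line, and CD34 protein was part of the human gate but not of the mouse gate. Whether the 3 libraries of a group came from separate embryos, litters or cultures is not in the labels, so p-values measure only the spread between these libraries, which may be technical.

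Blood stem cells are rare, and they are recognised by combinations of surface proteins. CD34 is a sialomucin of progenitors and endothelium, PROM1 (CD133) a pentaspan membrane protein, and THY1 (CD90) a lipid-anchored glycoprotein. PROCR is the endothelial protein C receptor, which is high on stem cells of the fetal liver. TEK is a receptor tyrosine kinase bound by ANGPT1, a pair known for keeping adult stem cells quiescent in the marrow and for vessel growth. SLAMF1 (CD150) and CD48 are related receptors used together: mouse stem cells carry the first and lack the second, while most committed progenitors carry CD48. CD44 binds hyaluronan, and ITGA6 is an integrin chain that pairs with ITGB1 or ITGB4 to bind laminin.

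Promoter sequences of the mouse genes are shown for the 3 members whose transcripts rose most in cKO cells (Procr, Tek and Slamf1) and for Cd48, which lies beside Slamf1. They run from 250 bases before to 50 bases after the annotated start, are from RefSeq on GRCm38.p6, and read 5′ to 3′ on the strand of the gene. Capitals mark the letters of a searched motif on either strand. Procr is at chr2:155750967-155751266, plus strand, Tek at chr4:94739039-94739338, plus strand, Slamf1 at chr1:171766882-171767181, plus strand and Cd48 at chr1:171681742-171682041, plus strand.
Procr: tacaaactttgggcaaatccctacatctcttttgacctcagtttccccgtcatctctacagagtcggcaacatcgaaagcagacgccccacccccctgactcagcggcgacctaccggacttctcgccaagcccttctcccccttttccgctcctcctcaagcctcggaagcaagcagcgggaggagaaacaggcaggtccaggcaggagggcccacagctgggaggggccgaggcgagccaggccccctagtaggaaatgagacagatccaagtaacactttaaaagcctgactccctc
Tek: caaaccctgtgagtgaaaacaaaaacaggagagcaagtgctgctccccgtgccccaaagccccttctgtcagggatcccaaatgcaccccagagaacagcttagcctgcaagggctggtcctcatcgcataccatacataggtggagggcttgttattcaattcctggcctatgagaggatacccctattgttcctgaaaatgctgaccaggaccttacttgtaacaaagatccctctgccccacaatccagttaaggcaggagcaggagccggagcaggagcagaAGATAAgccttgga
Slamf1: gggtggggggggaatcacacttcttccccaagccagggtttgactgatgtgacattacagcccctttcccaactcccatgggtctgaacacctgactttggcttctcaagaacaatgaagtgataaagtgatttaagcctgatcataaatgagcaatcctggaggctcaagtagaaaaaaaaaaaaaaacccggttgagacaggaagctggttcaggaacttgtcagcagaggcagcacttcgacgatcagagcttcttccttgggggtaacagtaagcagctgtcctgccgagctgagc
Cd48: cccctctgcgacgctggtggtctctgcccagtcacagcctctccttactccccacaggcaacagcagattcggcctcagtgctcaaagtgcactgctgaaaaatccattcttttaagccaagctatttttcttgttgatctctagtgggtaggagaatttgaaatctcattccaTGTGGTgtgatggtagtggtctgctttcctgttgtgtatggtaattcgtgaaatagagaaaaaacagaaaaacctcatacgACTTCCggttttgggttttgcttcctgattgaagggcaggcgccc

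The motifs searched on both strands were AGATAA (1 form of the core bound by GATA factors), GGAAGT (bound by ETS factors), TGTGGT (bound by RUNX factors) and the p53 half-site. Other forms of the GATA core, such as the TGATAA in the Slamf1 promoter, were not searched. No 2 of the matches found overlapped. RefSeq promoters were matched for 7 of the 10 mouse members, with 8 promoters in all. AGATAA was in the Tek promoter, 37 bases into the transcript, and in that of Cd44, and 11.2% of all 32851 mouse promoters of this length held it. The Cd48 promoter held both GGAAGT, found in 23.8% of all promoters, and TGTGGT, found in 16.8%. Of the 2 Prom1 promoters, 1 held TGTGGT and the other GGAAGT. Those of Procr, Slamf1 and Cd34 held none of the 4 motifs, and the p53 half-site, present in 8.36% of all promoters, was in none of the 8. These are matches of letters in a fixed window and describe no binding.

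The libraries held 21116079 to 23182524 counts in WT, 21477628 to 23898130 in cKO, 15289510 to 18763464 in shNC and 17101808 to 19798608 in shDDX21. The targeted gene fell in both experiments, from 1410, 1431 and 1432 to 276.0, 282.9 and 281.5 CPM (the usual depth-scaled read count, here with library sizes scaled by TMM factors) for Ddx21 in the mouse. Human DDX21 fell from 476.9, 465.3 and 468.1 to 68.6, 69.2 and 67.0 CPM. The biological coefficient of variation between libraries of a group was 10.5% in the mouse and 2.23% in the human experiment. Uty, Kdm5d, Eif2s3y and Ddx3y, which are on the Y chromosome, summed to 133.3 to 147.4 CPM in WT and 263.3 to 299.6 CPM in cKO, so the share of male cells may differ between the groups. No mouse member lies on X or Y, and the part of any such difference in the results was not tested. In these bulk libraries, fewer cells of a type and less RNA per cell cannot be told apart.

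In mouse LK cells, transcripts of 9 of the 10 surface genes were higher in cKO than in WT, from 1.22-fold for Cd44 to 4.60-fold for Procr, and 1, Prom1, did not pass the test. Differences were tested by quasi-likelihood in edgeR, with p-values adjusted by Benjamini-Hochberg over all 14918 mouse genes tested, and a gene was called at an adjusted p under 0.05. Of all those genes, 36.5% were called in either direction and 20.7% were called higher (3083 of 5443 called, against 3565 of 5177 with total counts as the scale). Asking also for a 2-fold change, 5 members were left (Procr, Tek, Slamf1, Angpt1 and Thy1), against 9.08% of all genes. The median log2 fold change was 1.13 over the 10 members and 0.000574 over all genes tested. Because the members were chosen with earlier results of these data known, the values for all genes are no test of the list. The CPM values of the groups did not overlap for any of the 10, a pattern found in 49% of all genes.

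**Figure D1:**
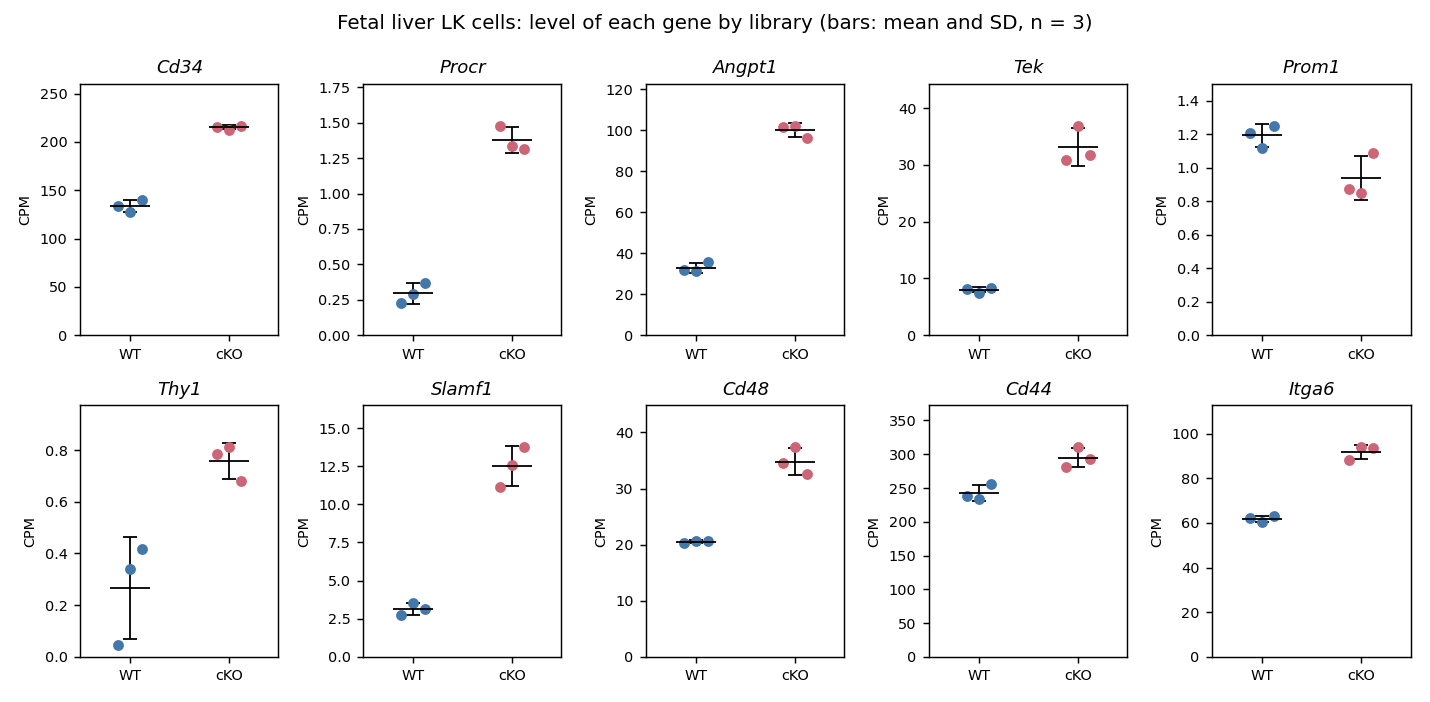
Level of each of the 10 genes in the 6 mouse libraries, in CPM on a linear axis from 0, with 1 point per library and bars for the mean and SD of 3 libraries. Every gene except Prom1 sits higher in all 3 cKO libraries than in all 3 WT libraries, with Procr, Prom1 and Thy1 below 1.5 CPM throughout.

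Among the glycoproteins that define the progenitor state, Cd34 (ENSMUSG00000016494; GRCm38 chromosome 1, 194938819 to 194961279, plus strand) stood at 133.3, 127.7 and 140.1 CPM in WT and at 215.9, 212.9 and 217.0 CPM in cKO. The lowest cKO library was well above the highest WT library. Cd34 rose 1.61-fold (log2 fold change 0.69, SE 0.043, adjusted p 3.18e-05). Its exons share 148 bases with Gm16897 on the other strand, which had 12 to 58 counts against 2624 to 5253 for Cd34.

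Prom1 (ENSMUSG00000029086; chromosome 5, 43993620 to 44102032, minus strand) was the exception among the 10. WT libraries held 27, 23 and 27 reads of it and cKO libraries 20, 21 and 24, or 1.19 ± 0.068 and 0.937 ± 0.132 CPM (SD, n = 3 each). The log2 fold change of -0.35 (SE 0.19, adjusted p 0.230) did not pass the test, so a difference was not detectable at this depth of 20 to 27 counts per library. All 3 cKO libraries nevertheless lay below the 3 WT libraries in CPM.

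Thy1 (ENSMUSG00000032011; chromosome 9, 44043384 to 44048579, plus strand) was the lowest of the 10 in WT. WT libraries held 1, 7 and 9 reads of it, against 18, 20 and 15 in the cKO libraries. The log2 fold change was 1.50 (SE 0.49), and its adjusted p of 0.0480 lay just under the threshold. Leaving out WT replicate 1, which held the single count, gave 0.99 (adjusted p 0.0562), and the call was also lost without WT replicate 2 (0.0936) or without any one of the cKO replicates (0.0802 to 0.103). The Thy1 call rests on a few reads and is uncertain.

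Procr (ENSMUSG00000027611; chromosome 2, 155751117 to 155755471, plus strand) showed the largest fold change of the 10. It was read 5, 6 and 8 times in WT libraries and 34, 33 and 29 times in cKO libraries, which is 0.296 ± 0.074 and 1.38 ± 0.090 CPM (SD, n = 3 each). The groups were far apart, but the level stayed low in both groups. Procr rose by 2.20 on the log2 scale (SE 0.24, adjusted p 0.000479), and over 12 alternatives it ranged from 2.03 to 2.39.

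The ligand and its receptor rose together. Angpt1 (ENSMUSG00000022309; chromosome 15, 42424723 to 42676977, minus strand) was at 31.5, 31.4 and 35.6 CPM in WT and at 101.4, 102.2 and 96.0 CPM in cKO. It rose 3.04-fold (log2 fold change 1.61, SE 0.064, adjusted p 4.13e-06). Tek (ENSMUSG00000006386; chromosome 4, 94739289 to 94874976, plus strand) was at 8.16, 7.50 and 8.35 CPM in WT and at 30.8, 36.9 and 31.7 CPM in cKO. Its rise of 4.14-fold (log2 fold change 2.05, SE 0.098, adjusted p 1.02e-05) left a wide gap between the groups. Of the direct partners fixed for this pair, Tie1, the sister receptor of Tek, rose by 1.21 (SE 0.22, adjusted p 0.00504). Angpt2, a second ligand that can oppose Angpt1, rose by 0.46 from 2.60 to 3.57 CPM, and Ptprb, a phosphatase that restrains Tek, rose by 1.96 from 0.286 to 1.11 CPM. All 5 genes of this axis were thus called higher in cKO, as were 20.7% of all genes tested, though Ptprb and Angpt2 stood at a few CPM or less.

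The SLAM pair rose as well. Slamf1 (ENSMUSG00000015316; chromosome 1, 171767127 to 171801184, plus strand) was at 2.74, 3.55 and 3.16 CPM in WT and at 11.2, 12.6 and 13.7 CPM in cKO, a rise of 3.97-fold (log2 fold change 1.99, SE 0.14, adjusted p 4.56e-05). Cd48 (ENSMUSG00000015355; chromosome 1, 171682009 to 171705258, plus strand) was at 20.2, 20.6 and 20.7 CPM in WT and at 34.5, 37.4 and 32.6 CPM in cKO, a rise of 1.70-fold (log2 fold change 0.76, SE 0.071, adjusted p 0.000206). The marker that stem cells carry and the marker that they lack were therefore both higher in cKO cells. Per kilobase of exon Cd48 stayed well above Slamf1, at 29.3 ± 2.02 against 2.03 ± 0.211 CPM per kilobase in cKO (SD, n = 3 each).

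The adhesion receptors changed least among the called members. Cd44 (ENSMUSG00000005087; chromosome 2, 102811141 to 102901665, minus strand) was at 237.8, 234.2 and 256.1 CPM in WT and at 281.8, 310.3 and 293.4 CPM in cKO. It rose 1.22-fold (log2 fold change 0.28, SE 0.052, adjusted p 0.00496), and the lowest cKO library was above the highest WT library. Itga6 (ENSMUSG00000027111; chromosome 2, 71745616 to 71858416, plus strand) was at 62.0, 60.5 and 63.2 CPM in WT and at 88.2, 93.9 and 93.3 CPM in cKO. It rose 1.48-fold (log2 fold change 0.57, SE 0.046, adjusted p 0.000102). Its integrin partners did not pass the test: Itgb1 had a log2 fold change of -0.12 (adjusted p 0.0931) and Itgb4 of -0.02 (adjusted p 0.968).

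Further partners and relatives of the members were examined as a list of 17 genes. In the mouse, 10 of 17 were tested, 7 were called higher, 0 lower and 3 not called, with a median log2 fold change of 0.54. Of all mouse genes tested, 20.7% were called higher and 15.8% lower. F2r, the thrombin receptor through which activated protein C bound to Procr signals, rose by 0.84 from 114.3 to 204.9 CPM (adjusted p 1.71e-05). Thbd, which helps to activate protein C, had a log2 fold change of 0.29 and was not called (adjusted p 0.132). Podxl, a sialomucin of the same family as Cd34, rose by only 0.14 (adjusted p 0.0134). Cd84 and Ly9, 2 more SLAM receptors of the same stretch of chromosome 1, rose by 0.94 and 0.62. Cd244, the receptor for Cd48, was not matched by that symbol in the mouse.

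A second list held 36 other surface genes of stem and progenitor cells. In the mouse, 34 were tested, 16 were called higher, 10 lower and 8 not called, with a median of 0.31 on the log2 scale. The shares of all mouse genes tested were 20.7% called higher and 15.8% lower. The genes named here for the size of their change went in both directions. Eng, a co-receptor for TGF-beta ligands, rose by 1.62, Itga2b, the platelet integrin chain, by 1.04 and Cd93, a lectin-like receptor of early progenitors, by 0.91. Csf1r, the receptor of macrophage growth factor, fell by 2.08, Tnfrsf14 by 1.03 and Cd82 by 0.95. Flt3, which marks multipotent and lymphoid progenitors, had a log2 fold change of -0.02 (adjusted p 0.815). Ly6a, which encodes Sca-1 and splits stem cells from other LK cells by flow cytometry, averaged 0.282 CPM in WT and 0.509 CPM in cKO and was too low to be tested.

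Genes of the mouse gate were checked against it. Kit, the positive gate, averaged 362.3 CPM in WT against 316.9 CPM in cKO and fell by 0.19 (adjusted p 0.00334). Of the negative gate, Ly6g, Ly6c1, Cd3e and Cd3d had at most 1 count in any library. Itgam (CD11b) averaged 3.28 CPM in WT against 2.41 CPM in cKO, Ly6c2, part of the Gr1 antigen, 1.69 against 0.187 CPM, and Cd3g 0.437 against 0.866 CPM. Ptprc, whose B220 form was gated out, was at 70.9 and 101.3 CPM. No gene is given here for the Ter119 antigen, so this check does not cover the whole gate.

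Several marker lists of other cell types moved with genotype in the mouse libraries. Beside the counts called in each list, 20.7% of all mouse genes tested were called higher and 15.8% lower. The summed level of 13 endothelial genes was 115.1 to 138.0 CPM in WT and 140.6 to 177.6 CPM in cKO, with 4 of 9 tested members called higher and 0 lower. Cdh5, a defining endothelial gene, averaged 0.450 CPM in WT against 1.15 CPM in cKO, and Cldn5 and Sox17 had no count in any library. Tek and Cd34 are also endothelial genes, at 33.1 and 215.2 CPM in cKO. The megakaryocyte list summed to 72.7 to 84.1 CPM in WT and 133.7 to 167.3 CPM in cKO (5 of 8 tested higher, 0 lower). Called were Itga2b, from 53.5 to 110.3 CPM, F2rl2, from 5.94 to 15.2 CPM, Gp1ba, from 9.89 to 12.9 CPM, Mpig6b, from 0.309 to 2.03 CPM, and Ppbp, from 0.139 to 0.562 CPM, while Pf4 (3.34 and 3.23 CPM), Gp9 (2.91 and 2.11 CPM) and Treml1 (2.97 and 3.76 CPM) were not. Stromal genes summed to 24.8 to 28.5 and 35.1 to 41.6 CPM (3 of 5 higher, 0 lower). The 3 called were Col1a2, from 2.65 to 8.33 CPM, Postn, from 1.23 to 6.48 CPM, and Des, with 0 counts in each WT library and 25, 20 and 14 in the cKO libraries, while Col6a1, Dcn, Lum and Acta2 had no more than 2 counts in any library. These 3 made up only a small part of the WT sum, and the other 2 tested stromal genes were not called. Hepatocyte genes summed to 6.54 to 8.07 and 36.5 to 39.2 CPM (4 of 7 higher, 0 lower), led by Afp and Alb at 14.4 and 12.1 CPM in cKO.

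Mast cell genes summed to 107.3 to 129.9 CPM in WT and 144.8 to 187.6 CPM in cKO (1 of 4 higher, 0 lower), with Tpsab1 at 0 counts. The erythroid, granulocyte and monocyte, and lymphoid sums were lower in cKO. Erythroid genes summed to 3224 to 3292 CPM in WT and 2034 to 2109 CPM in cKO (2 of 10 higher, 6 lower), and granulocyte and monocyte genes to 754.3 to 1015 and 394.6 to 643.8 CPM (1 of 12 higher, 9 lower). Lymphoid genes summed to 32.1 to 34.2 and 17.0 to 19.3 CPM (1 of 8 higher, 4 lower). The part of these shifts in the levels of the 10 surface genes was not tested.

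In the human cells the surface genes split: 3 of 9 were higher in shDDX21, 4 were lower and 2 were not called. CD34, PROCR and TEK rose by 1.20- to 1.53-fold, and ANGPT1, CD44, THY1 and ITGA6 fell, ANGPT1 the most, to 37.4% of its control level by the fitted change. Of all 20188 human genes tested, 52.7% were called in either direction, 25.3% higher and 27.4% lower. That balance depends on scaling: 5105 of 10631 called genes were higher here, against 6255 of 10890 with upper-quartile factors and 4625 of 10594 with total counts. With a 2-fold change required as well, only ANGPT1 was left, against 7.18% of all genes. The CPM values of the groups did not overlap for 7 of the 9, against 57.4% of all genes. The median log2 fold change was -0.08 over the 9 members and 0.00519 over all genes.

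**Figure D2:**
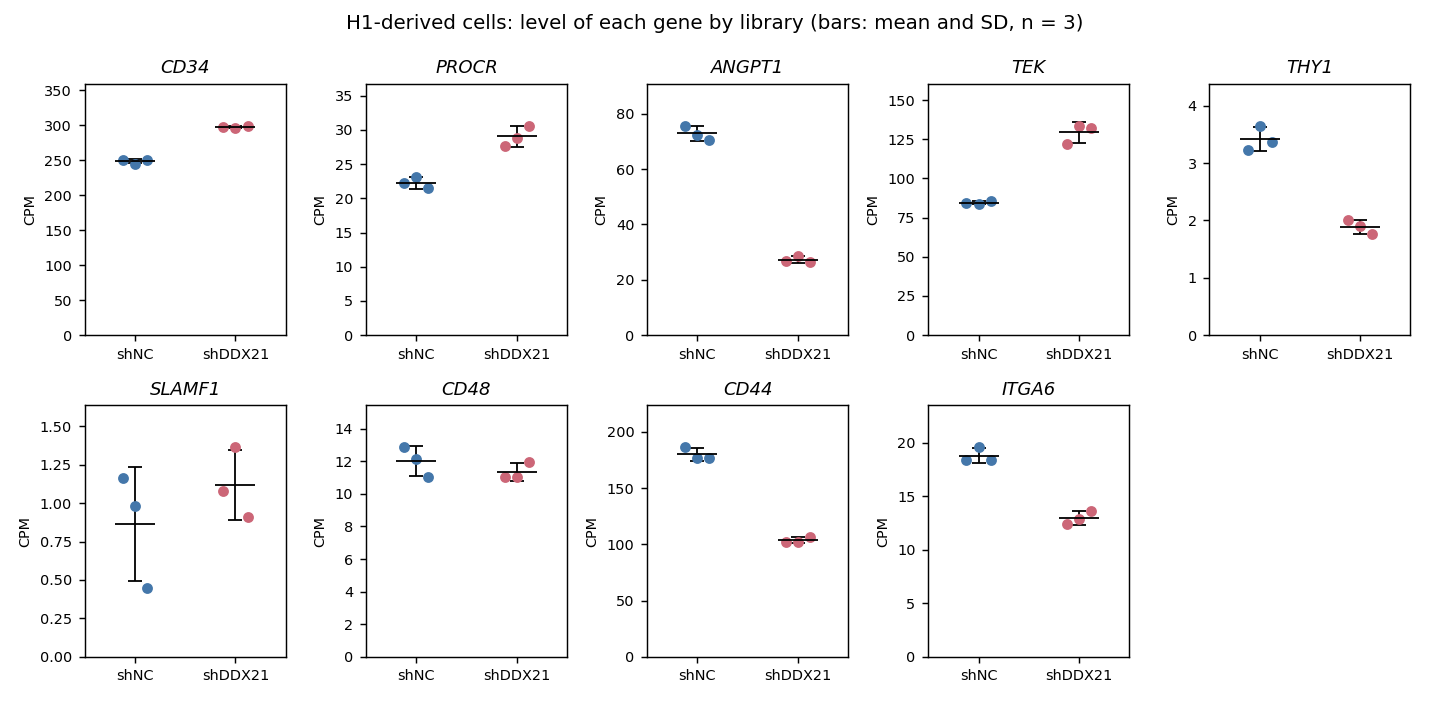
Level of each of the 9 matched genes in the 6 human libraries, in CPM on a linear axis from 0, with 1 point per library and bars for the mean and SD of 3 libraries. ANGPT1, CD44, ITGA6 and THY1 sit lower in all 3 shDDX21 libraries, CD34, PROCR and TEK sit higher, and SLAMF1 and CD48 overlap between the groups.

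CD34 (ENSG00000174059; chromosome 1, 207880972 to 207911402, minus strand, on hg38 as the submitters' processing notes name it) was at 249.8, 245.1 and 250.8 CPM in shNC and at 297.4, 295.6 and 299.4 CPM in shDDX21. The libraries of a group lay within a few CPM of each other and the groups were apart. CD34 rose 1.20-fold (log2 fold change 0.26, SE 0.025, adjusted p 1.26e-14). Both arms were sorted for CD34 protein, so this compares transcript levels among cells chosen as positive. The other gate genes changed too: SPN (CD43) rose by 0.35 from 690.8 to 883.0 CPM, and PTPRC (CD45) changed by -0.45, from 95.0 to 69.4 CPM.

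THY1 (ENSG00000154096; chromosome 11, 119415476 to 119424985, minus strand) was read 61, 56 and 60 times in the shNC libraries and 39, 32 and 31 times in the shDDX21 libraries. It fell by 0.85 on the log2 scale (SE 0.20, adjusted p 0.000293), from 3.42 ± 0.217 to 1.89 ± 0.119 CPM (SD, n = 3 each). The highest shDDX21 library held fewer reads than the lowest shNC library.

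The receptor PROCR (ENSG00000101000; chromosome 20, 35172072 to 35216240, plus strand) was at 22.3, 23.2 and 21.4 CPM in shNC and at 27.7, 28.9 and 30.6 CPM in shDDX21. It rose 1.30-fold (log2 fold change 0.38, SE 0.067, adjusted p 1.24e-06). Its partners in the protein C system went the other way: THBD fell by 0.78 (adjusted p 5.21e-17) from 36.7 to 21.4 CPM, and F2R fell by 0.24 (adjusted p 5.64e-14) from 332.2 to 280.7 CPM.

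Ligand and receptor parted in the human cells. ANGPT1 (ENSG00000154188; chromosome 8, 107249482 to 107498055, minus strand) was at 75.7, 72.3 and 70.6 CPM in shNC and at 26.7, 28.7 and 26.5 CPM in shDDX21. It fell by 1.42 on the log2 scale (SE 0.051, adjusted p 5.50e-37). TEK (ENSG00000120156; chromosome 9, 27109141 to 27230174, plus strand) was at 84.2, 83.8 and 85.8 CPM in shNC and at 122.0, 133.8 and 132.3 CPM in shDDX21, and rose 1.53-fold (log2 fold change 0.61, SE 0.036, adjusted p 6.27e-25). ANGPT2 fell by 0.95 (adjusted p 2.52e-09) from 9.24 to 4.77 CPM. TIE1 rose by 0.07 (adjusted p 0.0197) and PTPRB had a log2 fold change of -0.11 (adjusted p 0.114). Both ligand genes of the axis were thus lower and both receptor genes higher, TIE1 only slightly.

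For the SLAM pair no change was called. SLAMF1 (ENSG00000117090; chromosome 1, 160608106 to 160647044, minus strand) was read 22, 15 and 8 times in the shNC libraries and 21, 23 and 16 times in the shDDX21 libraries, with overlapping groups. Its log2 fold change of 0.36 has an SE of 0.35 (adjusted p 0.397), so at this depth neither a modest rise nor a modest fall could be detected. CD48 (ENSG00000117091; chromosome 1, 160678746 to 160711831, minus strand) was at 12.86, 12.14 and 11.03 CPM in shNC and at 11.04, 11.03 and 11.96 CPM in shDDX21. The groups overlapped, and CD48 had an estimated log2 change of -0.08 (SE 0.097, adjusted p 0.491).

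Both adhesion receptors fell. CD44 (ENSG00000026508; chromosome 11, 35138882 to 35232402, plus strand) was at 186.2, 177.0 and 176.5 CPM in shNC and at 102.2, 102.3 and 106.7 CPM in shDDX21, or -0.80 as log2 fold change (SE 0.032, adjusted p 3.15e-34). ITGA6 (ENSG00000091409; chromosome 2, 172234216 to 172506459, plus strand) was at 18.4, 19.6 and 18.4 CPM in shNC and at 12.4, 12.9 and 13.7 CPM in shDDX21, or -0.53 as log2 fold change (SE 0.084, adjusted p 1.08e-07). The groups were apart for each. ITGA6 shares 177 exon bases with ITGA6-AS1 on the other strand, which had 36 to 63 counts against 218 to 348 for ITGA6. The partner chain ITGB1 rose by 0.23 (adjusted p 7.35e-13), and ITGB4, at under 2 CPM, had a log2 fold change of 0.37 (adjusted p 0.242).

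Of the partners and relatives, 15 were matched and tested in the human cells, with 5 higher, 5 lower and 5 not called and a median of -0.11. For this list and the next, the shares of all human genes tested were 25.3% called higher and 27.4% lower. The SLAM relatives SLAMF6 and CD244 rose by 0.98 and 0.66, and CD84 rose by 0.25 from an already high 641.1 CPM. SLAMF7, which lies under the level set for named genes, fell by 1.59 from 4.31 to 1.43 CPM (adjusted p 5.48e-10), the largest change among the SLAM relatives tested. PODXL, the relative of CD34, fell by 0.84 from 17.4 to 9.70 CPM, opposite to CD34 itself. Of the other stem and progenitor surface genes 31 of 36 were matched and tested, with 16 higher, 13 lower and 2 not called and a median of 0.10. The largest changes were decreases of IL7R, the interleukin 7 receptor chain, by 2.32, of the integrin chain ITGA4 by 1.72, of ALCAM by 1.34, of ADGRG1 by 1.09 and of MCAM by 1.03. ITGA5 rose by 0.77 and CXCR4, the receptor that retains stem cells in their niche, by 0.75, while JAM3 fell by 0.73. KIT rose by 0.13 (adjusted p 6.53e-05).

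Marker lists in the human cells were read only over genes that the deposited table pairs with a symbol. Beside the counts called in each list, 25.3% of all human genes tested were called higher and 27.4% lower. Endothelial genes were abundant and lower in shDDX21, at 1884 to 1935 CPM in shNC and 1516 to 1543 CPM in shDDX21 (1 of 12 tested higher, 8 lower), KDR alone at 1007 and 813.8 CPM. Megakaryocyte genes summed to 1821 to 1894 and 2164 to 2206 CPM (4 of 7 higher, 1 lower). Erythroid genes summed to 1949 to 1969 and 1552 to 1576 CPM (6 of 13 higher, 4 lower). Granulocyte and monocyte genes summed to 926.5 to 939.3 and 697.9 to 708.9 CPM (1 of 11 higher, 10 lower). Mast cell genes summed to 781.6 to 796.0 and 555.0 to 561.7 CPM (0 of 6 higher, 2 lower).

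Stromal genes summed to 218.9 to 231.6 CPM in shNC and 211.3 to 219.2 CPM in shDDX21, with overlapping groups (2 of 8 higher, 6 lower), and lymphoid genes to 55.0 to 58.8 and 32.3 to 35.6 CPM (2 of 9 higher, 3 lower). Most of the lower lymphoid sum was IL7R, from 29.25 to 5.84 CPM, and the median log2 fold change of the lymphoid list was 0.15. Only 4 of 13 hepatocyte genes were matched, and DLK1, which progenitors of several tissues express, made up most of their sum of 2952 to 3105 and 3184 to 3256 CPM (3 of 4 higher, 1 lower). The part of these shifts in the human surface gene levels was not tested.

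**Figure D3:**
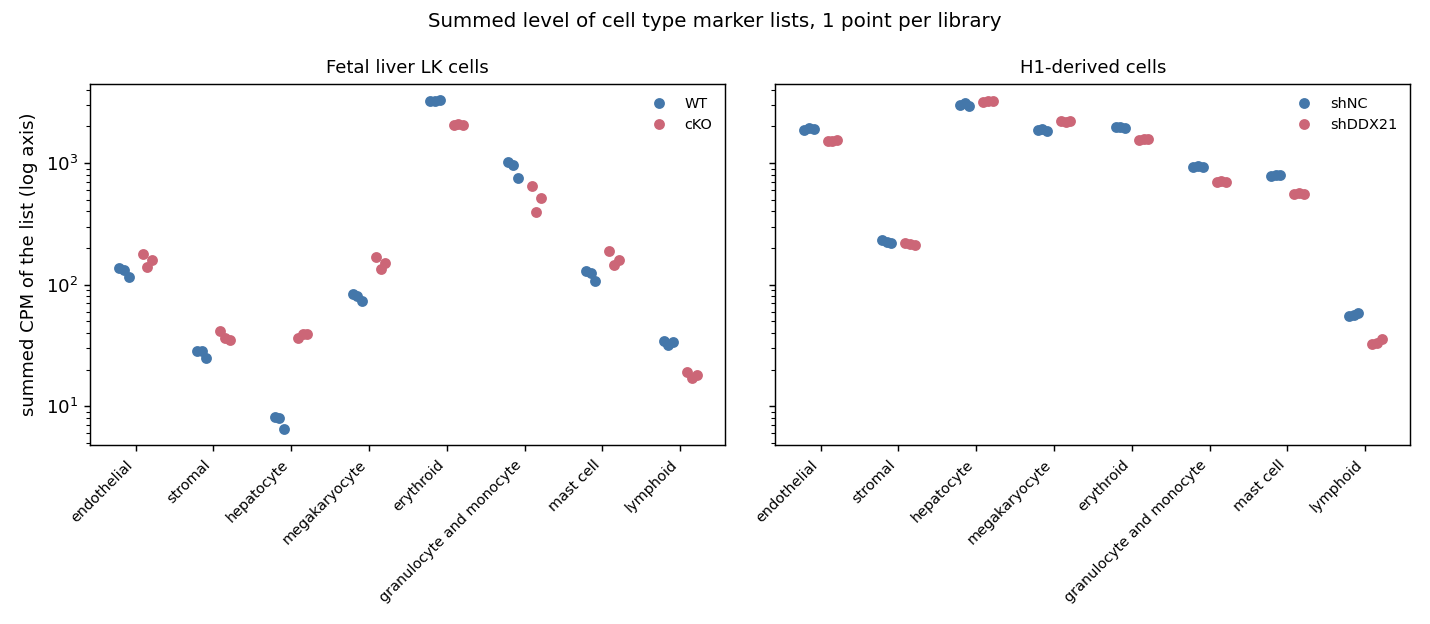
Summed CPM of each cell type marker list on a log axis, with 1 point per library, for the mouse groups (left) and the human groups (right). In the mouse the hepatocyte sum lies at 6.54 to 8.07 CPM in WT and 36.5 to 39.2 CPM in cKO, and the erythroid sum is lower in cKO.

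Levels of different genes were compared per kilobase of exon. In WT LK cells the order was Cd44 (35.8 ± 1.73 CPM per kilobase, SD, n = 3), Cd34 (18.4 ± 0.854), Cd48 (17.3 ± 0.203), Itga6 (6.77 ± 0.149), Angpt1 (6.30 ± 0.456), Tek (1.70 ± 0.096), Slamf1 (0.511 ± 0.066), Prom1 (0.167 ± 0.0095), Procr (0.146 ± 0.036) and Thy1 (0.0894 ± 0.066). The libraries of neighbours overlapped for Itga6 with Angpt1, for Prom1 with Procr and for Procr with Thy1. In cKO cells Angpt1 (19.2 ± 0.644) stood above Itga6 (10.0 ± 0.343), Cd34 and Cd48 overlapped, and Prom1 (0.131 ± 0.018) was last. Cd44 was first in both genotypes.

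The human cells had another order, led by CD34 in both arms. In shNC, CD34 (27.0 ± 0.332 CPM per kilobase, SD, n = 3) was followed by CD44 (18.0 ± 0.543) and TEK (17.6 ± 0.221), whose libraries overlapped. Then came PROCR (13.1 ± 0.511), ANGPT1 (10.2 ± 0.366), CD48 (3.69 ± 0.283), ITGA6 (2.65 ± 0.096), THY1 (0.496 ± 0.031) and SLAMF1 (0.216 ± 0.092). In shDDX21, TEK (26.9 ± 1.34) and PROCR (17.1 ± 0.880) stood above CD44 (10.4 ± 0.259), and SLAMF1 and THY1 overlapped. PROCR and TEK were thus among the higher of these transcripts in the human cells and among the lower in WT LK cells, where they stood at 0.146 and 1.70 CPM per kilobase. The 2 experiments were scaled separately, so levels set across them are given side by side without a test.

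**Figure D4:**
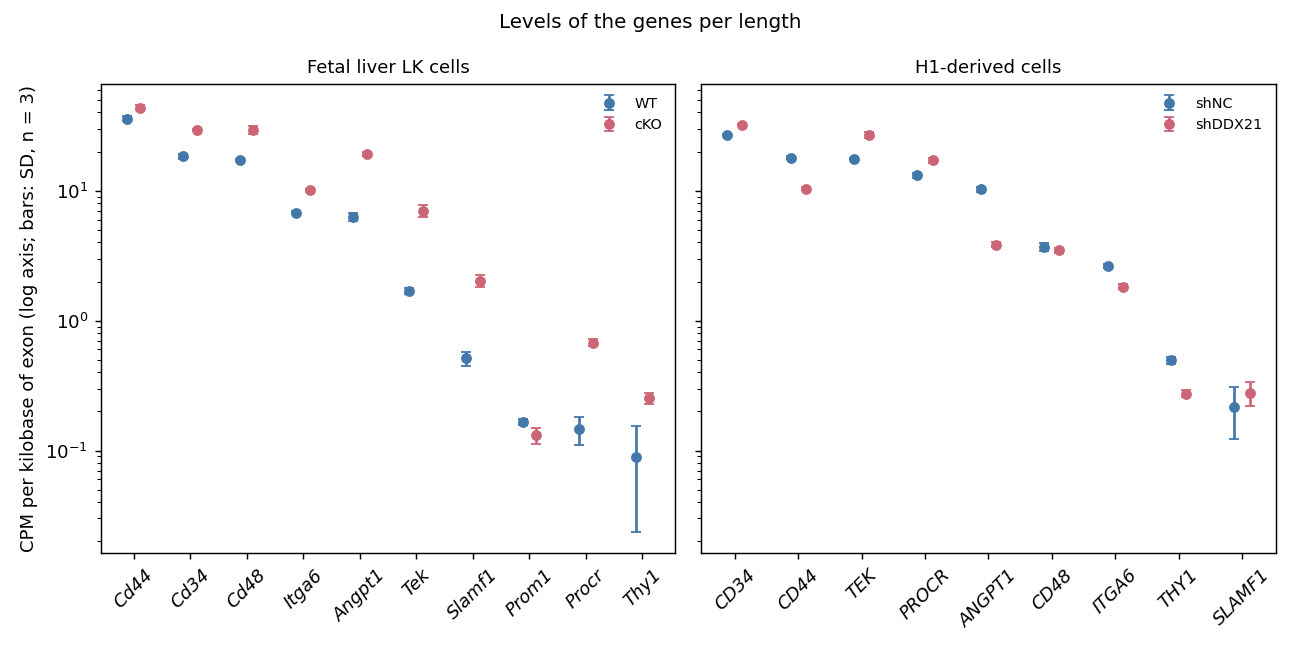
Mean level of each gene in CPM per kilobase of exon on a log axis, with SD over 3 libraries, for WT and cKO (left) and shNC and shDDX21 (right), ordered by the control level. Procr lies near the bottom in the mouse (0.146 in WT), and PROCR holds rank 4 in the human control cells (13.1 in shNC).

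Whether the effect itself differed between the experiments was tested as an interaction in 1 quasi-likelihood fit of all 12 libraries over 10318 genes matched by symbol. The fit gave each gene 1 variance estimate for both experiments, although variation between libraries was 10.5% in the mouse and 2.23% in the human. For THY1 and PROCR the SE of the difference was thus below that of the mouse effect alone (0.49 and 0.24). Their SE and adjusted p may be too small. Organism, kind of cell and way of lowering DDX21 differ together here and cannot be told apart. All 9 members tested were called, each with the mouse effect above the human effect, while 56.2% of all matched genes were called and 35.8% were called with the mouse effect above. ANGPT1 differed most, by 3.02 on the log2 scale (SE 0.082, adjusted p 1.44e-10), up in LK cells and down in the human cells. CD44, ITGA6 and THY1 also rose in the mouse and fell in the human cells, with differences of 1.08 (SE 0.064), 1.10 (SE 0.073) and 2.35 (SE 0.44). The mouse rise of THY1 rests on a few reads and its call is uncertain. For CD34, PROCR and TEK, which rose in both, the mouse rise was larger by 0.43 (SE 0.047), 1.82 (SE 0.21) and 1.44 (SE 0.10). The SLAM genes differed by 1.63 for SLAMF1 (SE 0.37, adjusted p 0.00274) and 0.85 for CD48 (SE 0.11, adjusted p 3.50e-05).

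**Figure D5:**
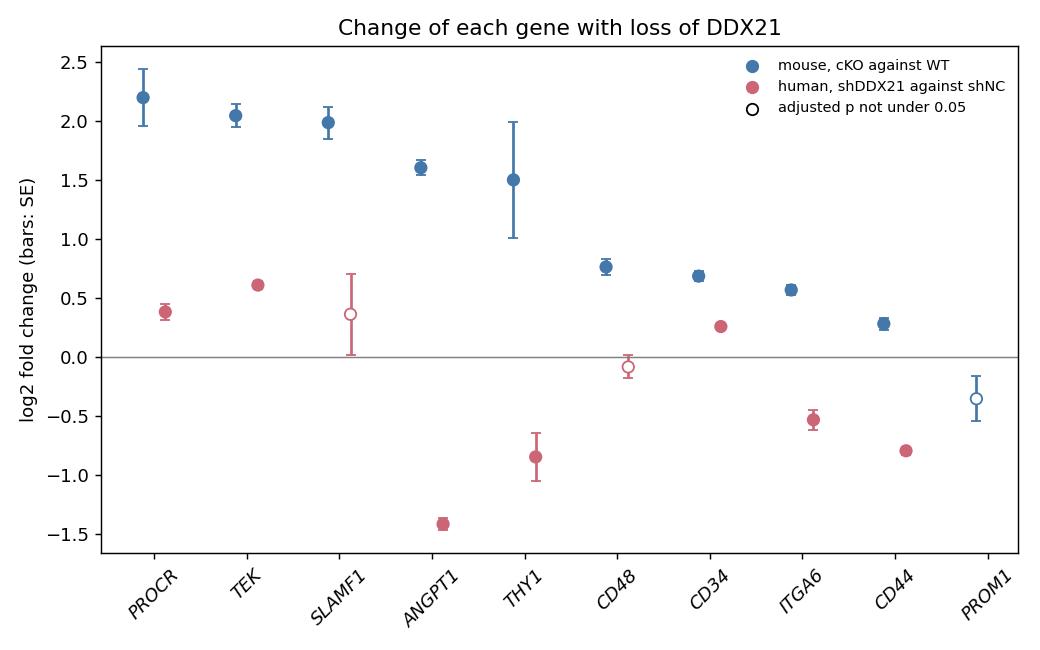
Log2 fold change of each gene in the mouse (cKO against WT) and in the human cells (shDDX21 against shNC), with SE as bars and open points where the adjusted p was not under 0.05. Genes are ordered by the mouse change, from 2.20 for PROCR to -0.35 for PROM1, and every human point lies below the mouse point of the same gene.

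The genes most like Cd34 and Cd48 over the 6 libraries of an experiment were found by Pearson's r of log2 CPM, given as a description only. The 6 libraries form 2 groups, so where the groups are apart r mainly ranks genes by how cleanly they separate them. The groups overlapped for human CD48, and r there also follows the scatter between libraries. For mouse Cd34 these were Camk2d (r 0.9999), Gimap8 (0.9993) and Nkg7 (0.9993), with log2 fold changes of 1.31, 1.62 and 1.93. For mouse Cd48 they were F11r (r 0.9985), Tespa1 (0.9981) and Gprasp1 (0.9974). In the human cells they were MAP3K3, AMDHD2 and NCKAP5L for CD34 (r 0.9999, 0.9998 and 0.9998), and TTC23, CHAC2 and ADRM1 for CD48 (r 0.9997, 0.9617 and 0.9600).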

How the data were processed

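Polyadenylated RNA was sequenced in 12 libraries. The authors deposited raw read counts for each gene, beside its position and exon length, made with STAR and featureCounts on mm10 and hg38, per the submitters' processing notes (no roles or versions given). The strand setting, the treatment of reads that fit several genes and the annotation release are not given in the sources used here. For each experiment the authors also deposited a normalized signal, equal to the count over 1 constant per library (largest relative deviation 4.97e-10), and the authors' log2 ratio to the control mean. These tables gave gene symbols and a check of the levels. Mouse symbols were completed from GENCODE M21, as for Thy1, and all 10 mouse members had the positions of that release. No column of per-sample values was left unused.

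Each experiment was fitted on its own with edgeR 4.0.16 (R 4.3.3): filterByExpr, TMM factors, glmQLFit and glmQLFTest, two-sided, no covariates, p-values adjusted over all genes tested. SE was obtained as the size of the log2 fold change divided by the root of F. CPM uses TMM-scaled library sizes, and log2 CPM a prior count of 2. Alternatives were RLE, upper-quartile and total-count scaling, 2 other filters, DESeq2 1.42.0, a replicate block, a 2-fold minimum, leaving out each library, and the deposited normalized values. For 1 value in 3 against 3 libraries, the smallest two-sided p of an exact permutation test is 0.1. The members and lists were chosen with earlier results of these data known. Named are all members, their direct partners, the gate genes, and from each of the other 2 surface gene lists up to 8 called genes with the largest change at a mean of at least 5 CPM; a few genes that this rule names are not reported here. Flt3, Ly6a, KIT, SLAMF7, Slamf6 and Cd38, and markers named within the cell type lists, were chosen after their values were seen.

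The fits were tested on simulated counts with 200 changed genes, each averaging 50 counts or more. The mouse fit recovered 87 of 92 genes changed 2-fold and all 108 changed 4-fold, with 18 false calls among 14638 genes. The human fit recovered 87 of 87 and 113 of 113, with 13 false calls among 19705. Mouse Procr, Prom1 and Thy1 and human SLAMF1 and THY1 had fewer counts than that.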

Additional observations from a re-analysis of the deposited data

Results flagged for a closer look

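Each of the 9 genes tested in both experiments had a mouse effect that differed from the human effect in the interaction fit of all 12 libraries (edgeR's quasi-likelihood test, Benjamini-Hochberg adjusted over 10318 genes). That fit shared the variance estimate of each gene between the experiments, so the adjusted p of THY1 and PROCR may be too small. Of all 10318 matched genes, 56.2% were called and 35.8% were called with the mouse effect above. The mouse minus human differences in log2 fold change were 3.02 for ANGPT1 (adjusted p 1.44e-10), 2.35 for THY1 (0.000814), 1.82 for PROCR (1.66e-05), 1.63 for SLAMF1 (0.00274), 1.44 for TEK (3.03e-07), 1.10 for ITGA6 (1.81e-07), 1.08 for CD44 (7.67e-08), 0.848 for CD48 (3.50e-05) and 0.428 for CD34 (1.14e-05). In 5 of the 9 (ANGPT1, THY1, CD48, CD44 and ITGA6) the fitted effects had opposite signs. However, the human effect on CD48 did not pass its own test, and the mouse call of THY1 rests on a few reads and is uncertain. Organism, cell type and kind of perturbation cannot be told apart as the source of these differences.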

How the results depend on the processing

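The number of mouse members called was 8 or 9 when each library was left out in turn, and the human number was 7 each time. A minimum of 2-fold left 5 mouse members and 1 human member. Requiring 10 counts in every library left Procr and Thy1 untested in the mouse, with 7 called. DESeq2 called 8 in the mouse and 7 in the human cells. Mouse Thy1 was the gene that lost its call: under DESeq2 its adjusted p was 0.0930, and over its 12 alternatives the adjusted p ranged from 0.0366 to 0.103. No member changed sign in any alternative run, and the other 9 mouse and 9 human members kept their side of the threshold wherever they were tested. The 9 differences between the experiments were called in every alternative that tested them, and 6 could be tested with 10 counts in every library. Scaling moved the overall balance of higher and lower calls in both experiments, as given above, while the number of members called stayed at 9 in the mouse and 7 in the human cells.

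The replicate numbers did not pair the libraries: deviations from the group means correlated by 0.316, -0.177 and 0.0131 for same-numbered mouse libraries and by -0.0138, -0.00238 and -0.000862 for human ones. With the number as a replicate block, 8 mouse members were called (Thy1 adjusted p 0.0692) and 7 human members, and calls over all genes went from 5443 to 5166 and from 10631 to 10601. Mouse libraries did not all correlate best with their own number. Depth limits Procr, Prom1 and Thy1 in the mouse and SLAMF1 in the human cells, with 34 or fewer counts per library.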

Other observations

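Slamf1 and Cd48 lie in the SLAM gene cluster, 61.9 kb apart in the mouse and 31.7 kb apart in the human genome. In LK cells the 4 matched genes of the cluster that passed the filter on low counts, Ly9, Cd48, Slamf1 and Cd84, stand in that order along mouse chromosome 1. They were called higher in cKO, by 0.62, 0.76, 1.99 and 0.94 on the log2 scale, and 20.7% of all mouse genes tested were called higher. Slamf6, of the same region, was lower in cKO in each library, with 9, 16 and 16 counts in WT against 5, 2 and 3 in cKO (means of 0.642 and 0.145 CPM), but did not pass the filter and was not tested. Slamf7, Slamf8 and Slamf9 were below 1 CPM and were not tested either, and Cd244 was not matched by symbol in the mouse. In the human cells the cluster was mixed: SLAMF6, CD84 and CD244 rose by 0.98, 0.25 and 0.66, SLAMF7 fell by 1.59, and SLAMF1, CD48, LY9 and SLAMF9 were not called. F11r, the gene whose levels in the mouse libraries were most like those of Cd48, lies on the same chromosome at 171437535 to 171464603 and rose by 2.19, from 1.93 to 8.77 CPM. Cd38, which was left out above for its low level, rose by 2.33 in LK cells, from 0.744 to 3.78 CPM.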
